A study of Mus musculus with 2 samples.

Results

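The macroH2A1 peaks of mouse chromosome 5 in E14 embryonic stem cells are described here. They are the rows of the deposited peak list whose chromosome is 5, 250 of 2560 peaks (9.77%, exact binomial 95% interval 8.64 to 11%). The other 18 autosomes held 2284 peaks and chromosome X held 26. The chromosome was chosen by its number of peaks, the highest of any, so that number and the densities and gaps that follow from it are a description and supports nothing; the next autosome, chromosome 2, had 192. All 250 rows were distinct regions, no filter removed any of them, and together they covered 0.411 Mb.

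Chromatin immunoprecipitation and sequencing (ChIP-seq) was done in E14, an established mouse embryonic stem cell line. The cells were untreated and were grown on gelatine in medium with serum and leukemia inhibitory factor. There were 2 libraries, 1 made with an antibody raised against the carboxyl-terminal part of mouse macroH2A1 and 1 made with IgG as a control. The list holds peaks of the macroH2A1 library; values of the IgG library were not analysed here. It gives no read count, height or fold enrichment per peak, so the depth is unknown. With 1 library per group and peaks that are not replicates, chromosome 5 is set beside the other autosomes without a test, and intervals cover counting error only.

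MacroH2A1 is a form of histone H2A that carries a large globular macro domain on its carboxyl end. It replaces ordinary H2A in some nucleosomes, is known for its build-up on the inactive X chromosome of female cells, and is also found along silent stretches of autosomes, including many genes of development. Mouse chromosomes carry their centromere at the low-coordinate end, so rising window numbers below run away from the centromere.

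A peak reached close to the start of few genes on chromosome 5, and the sequence before such starts is shown for 2 of them, because in the deposited coordinates a peak lay upstream and ended within 250 bases of the start. Those of Selplg and Cxcl11, whose starts were covered by a peak, are not shown because the RefSeq promoter table held no start for them. Crmp1 encodes a phosphoprotein of growing axons, and the edge of its peak (mm9, chr5:37631350-37633350) was 34 bp upstream of the deposited gene start. Tmem120b encodes a membrane protein, and the edge of its peak (mm9, chr5:123524650-123526100) was 216 bp upstream. The letters are the 250 bases before the RefSeq start in GRCm38.p6, read 5′ to 3′ along the gene's plus strand, with CG dinucleotides in capitals. For Crmp1, which has 2 starts in the table, the one farthest upstream was taken.
Crmp1, chr5:37241808-37242057: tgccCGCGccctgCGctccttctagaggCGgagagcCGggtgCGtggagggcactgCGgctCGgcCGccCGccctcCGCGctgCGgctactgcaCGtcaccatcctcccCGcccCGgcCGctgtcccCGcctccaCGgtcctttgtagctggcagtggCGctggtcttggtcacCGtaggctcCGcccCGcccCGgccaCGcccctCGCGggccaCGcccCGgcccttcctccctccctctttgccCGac
Tmem120b, chr5:123076025-123076274: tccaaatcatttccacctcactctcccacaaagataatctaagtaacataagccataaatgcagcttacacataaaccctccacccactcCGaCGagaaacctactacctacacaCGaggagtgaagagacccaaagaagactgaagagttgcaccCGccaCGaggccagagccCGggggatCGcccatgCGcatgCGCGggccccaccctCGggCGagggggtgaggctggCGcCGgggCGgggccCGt
The stretch before Crmp1 held 30 CG dinucleotides and was 75.6% G or C; 5.94% of the 32851 stretches in the RefSeq promoter table held as many CG. The stretch before Tmem120b held 16 and was 58.8% G or C, and 25.4% of the table held as many. At least 1 CG was present in 93.1% of the 2047 stretches of chromosome 5 and in 92.1% of the whole table, with medians of 7 and 6. CG reads the same on both strands, so the strands were not counted apart. Starts in the 2 builds were matched by gene name only. If the deposited and RefSeq starts of Tmem120b are the same, most of its 250 bases lay outside the peak, whose edge was 216 bp upstream. The deposited and RefSeq gene lengths were 49988 and 50106 bp for Crmp1, and 41018 and 41949 bp for Tmem120b.

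Peaks were crowded into the end of the chromosome far from the centromere. Of the 31 windows of 5 Mb, windows 1 to 20 (0 to 100 Mb) held 95 peaks, or 0.950 per Mb, and windows 21 to 31 (100 Mb to the last deposited coordinate at 152 Mb) held 155, or 2.99 per Mb. The other autosomes together had 1.02 per Mb of the span seen in the list. The first 100 Mb of chromosome 5 was thus close to the density of the other autosomes, and the higher density lay beyond it. The boundary at 100 Mb was drawn after the counts had been seen.

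The fullest window was window 23 (110 to 115 Mb) with 29 peaks, and windows 24, 25 and 26 after it held 21, 17 and 20. These 4 windows, 110 to 130 Mb, held 87 peaks, 34.8% of the chromosome's peaks. On the other autosomes, the fullest 4 windows in a row held from 21 peaks on chromosome 7 to 63 on chromosome 4. As a share of the chromosome's own peaks, 5 other autosomes were above 34.8%, up to 52.3% on chromosome 17. Further full windows were 21 (100 to 105 Mb) with 18 peaks, 29 (140 to 145 Mb) with 18, 6 (25 to 30 Mb) with 16 and 28 (135 to 140 Mb) with 11. The other 23 windows held from 1 to 8 peaks each, and no window was empty.

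In all, 8 of 31 windows on chromosome 5 held at least 10 peaks (25.8%), against 43 of 458 on the other autosomes (9.39%). Counts of 15 or more occurred in 7 windows of chromosome 5 and in 8 windows of all other autosomes. The highest count elsewhere was 26, on chromosome 2. The median window was close to that of other autosomes, at 5 peaks on chromosome 5 against 3 to 6 elsewhere. The variance of the window counts was 6.23 times their mean on chromosome 5 and 0.978 to 4.90 times on the others. The 8 fullest windows together held 150 of the 250 peaks of chromosome 5.

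**Figure D1:**
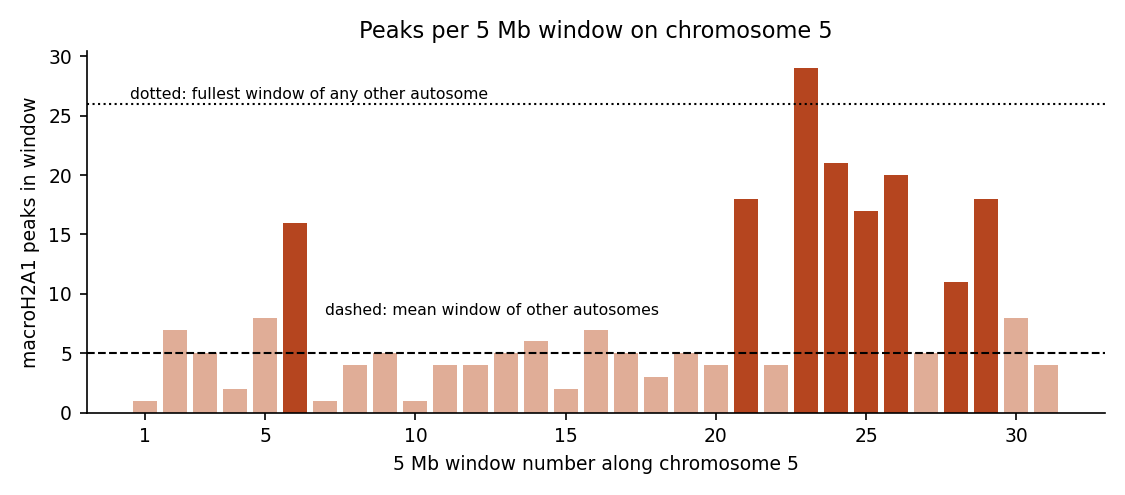
Bars give the number of macroH2A1 peaks (y axis) in each 5 Mb window of chromosome 5, numbered from the centromere end (x axis); dark bars hold at least 10 peaks. The dashed line is the mean window of the other autosomes (4.99 peaks) and the dotted line their fullest window (26 peaks); window 23 stands above it with 29.

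Of the 8 longest stretches without a peak, 7 lay in the first 100 Mb. The longest, 7.39 Mb (chr5:45814301-53206349), ran from Qdpr, which encodes dihydropteridine reductase, to Anapc4, a subunit of the anaphase-promoting complex. The next, 6.56 Mb, ran from Nsun7, a gene of the RNA methyltransferase family, to Tec, a tyrosine kinase gene of blood cells (chr5:66678601-73241899). It lies across windows 14 and 15. On the other autosomes the longest such stretch ranged from 4.11 Mb on chromosome 15 to 14.3 Mb on chromosome 7, with 7 of 18 above chromosome 5.

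Many neighbouring peaks on chromosome 5 were close. The median gap between regions was 245 kb on chromosome 5, against 345 to 868 kb on the other autosomes. Since more peaks on a chromosome make gaps shorter, the median was also divided by the mean gap. This ratio was 0.412 on chromosome 5 and 0.484 to 0.746 on the others. Gaps of at most 50 kb made up 58 of 249 on chromosome 5 (23.3%) and 243 of 2264 on the others (10.7%). Gaps under 5 kb numbered 15 on chromosome 5 and 46 on the others together.

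A run was taken as 3 or more regions with every gap at most 50 kb. Chromosome 5 had 13 runs with 53 regions, 21.2% of its regions (16.3 to 26.8%). The other 18 autosomes had 30 runs with 100 of 2282 regions, 4.38% (3.58 to 5.30%). The highest share among them was 8.14%, on chromosome 17, and chromosomes 3, 7 and 16 had no run. With a gap of 25 kb, 36 regions of chromosome 5 (14.4%) and 27 of the others (1.18%) lay in runs. With 100 kb the shares were 28.8% and 8.02%. Joining regions less than 5 kb apart into 1 left 33 of 235 joined regions of chromosome 5 in runs (14%), against 70 of 2236 elsewhere (3.13%). Regions enter runs 3 or more at a time, which the intervals do not take into account. The share in runs also rises with the density of peaks, for which it was not adjusted.

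**Figure D2:**
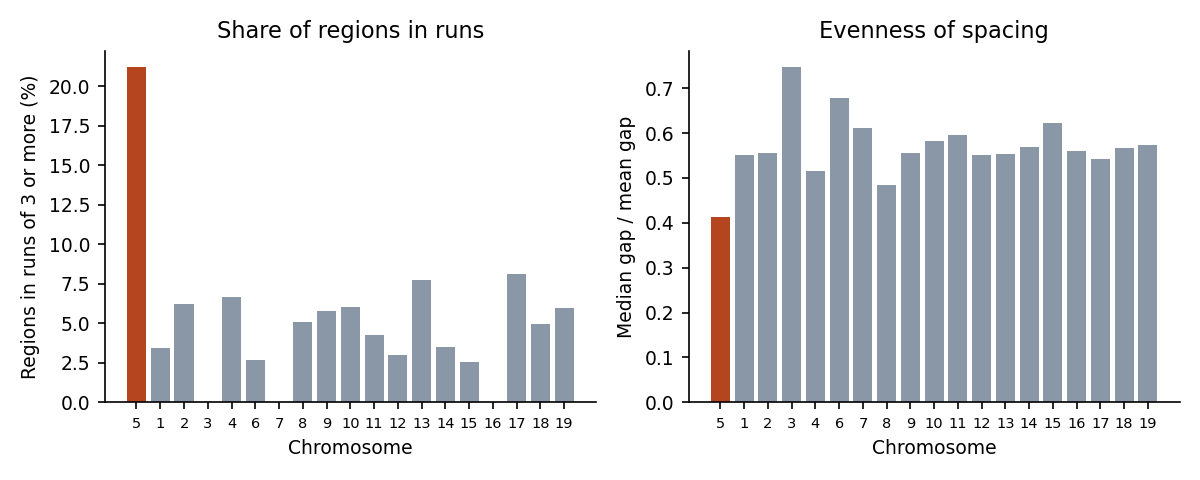
Left, the share of regions in runs of 3 or more with gaps of at most 50 kb, in percent, by chromosome; right, the median gap between regions divided by the mean gap. Chromosome 5, drawn first, has the highest share in runs (21.2%) and the lowest ratio (0.412) of the 19 autosomes.

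Of the 13 runs, 11 lay beyond 110 Mb. The 2 others were near Dpp6 and Spink2. Runs of 4 or more regions numbered 7 on chromosome 5 and 7 on all other autosomes together.

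The peaks of chromosome 5 were assigned to 181 genes, 125 with a symbol and 56 without. Of these genes, 143 had 1 peak, 25 had 2 and 13 had 3 or more. The 13 genes took 57 peaks, 22.8% of those on chromosome 5. On the other autosomes 60 of 1926 assigned genes had 3 or more, and they took 8.80% of the peaks. The number of peaks per assigned gene was 1.38 on chromosome 5 and 1.07 to 1.35 on the others. Assignment was to the nearest gene start, so a gene with no other gene near it takes up distant peaks.

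Within the first 100 Mb, window 6 (25 to 30 Mb) stood out, and it holds Dpp6, Insig1, Shh and Mnx1. Dpp6 encodes an accessory subunit of voltage-gated potassium channels in neurons. Its 3 assigned peaks lay 101, 70.9 and 50.7 kb upstream of the start and were 2051, 1651 and 1201 bp wide, all before the gene body of 909 kb. A further peak (chr5:27194900-27196050) lay within that body but was assigned to a gene without a symbol, whose start was nearer. Insig1 encodes a sterol sensor of the endoplasmic reticulum. Its peaks lay 68.4 and 32.6 kb upstream and 21.4 and 27.9 kb downstream, on both sides of a gene of 7.29 kb. Shh encodes the morphogen Sonic hedgehog. Its peak of 1351 bp overlapped the gene end, 9.09 kb from the start (chr5:28783200-28784550). Mnx1, a homeobox gene of motor neurons and pancreas, had 1 peak 7.56 kb from its start, downstream. Rnf32, a RING finger gene, had 2 peaks far upstream, at 206 and 192 kb. Htr5a, a serotonin receptor gene, had 1 peak 3.89 kb upstream. The peaks of this window were narrow, with a median width of 1351 bp, and 15 of its 16 peaks had an assigned gene with a symbol.

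The rest of the first 100 Mb held scattered peaks. From 35 to 100 Mb there were 55 peaks at 49 assigned genes, 0.846 per Mb. The 1 run there was at Spink2, a protease inhibitor gene of the male germ line, with peaks 23.7 and 16.3 kb downstream and 1 inside, 0.678 kb from the start. Nkx3-2, a homeobox gene of cartilage, had 1 peak 3.29 kb from its start, downstream. Pdgfra, a receptor gene of mesenchyme, had 1 peak 29 kb upstream. Epha5, an ephrin receptor gene of the nervous system, had 1 peak inside, 117 kb from the start. Cxcl11, a chemokine gene that RefSeq lists as a transcribed pseudogene in this assembly, was 1 of the 2 genes on the chromosome whose start was covered by a peak (chr5:92790600-92792350, 1751 bp).

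Window 23 (110 to 115 Mb) held the densest sequence of peaks. Mn1 is a transcriptional coactivator gene, and its 2 peaks of 1551 and 1951 bp lay 61.0 and 66.6 kb from its start, downstream. After Mn1 came 5 peaks assigned to ENSMUSG00000052848, a gene of 5.59 kb for which the list has no symbol. They lay 59.6 kb upstream and 21.2, 59.5, 147 and 227 kb downstream and measured 1851 to 2301 bp, all above the chromosome's median. Cryba4, a lens crystallin gene, followed with 3 peaks 118, 101 and 91.6 kb from its start, downstream. Both peaks of Gm6588 lay downstream, the closer at 15.3 kb from the start and the farther, 2451 bp wide, at 40.5 kb.

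Sez6l, a gene of a neuronal membrane protein, closed this sequence. Its 6 regions formed a run of 111 kb (chr5:112984500-113095100). The assigned peak inside the gene lay 20.1 kb from the start, and the 5 upstream peaks at 18.9, 54.2, 56.1, 64.6 and 86.9 kb. Both peaks of Gm6588 also lay within the deposited Sez6l body (chr5:112848180-113006205) but were assigned to Gm6588, whose start was nearer. The smallest gap in this run was 0.199 kb and the largest 39.0 kb. Widths were 1151 to 1951 bp. Myo18b, an unconventional myosin gene of striated muscle, lay next, with 1 peak of 3651 bp inside, 24.6 kb from its start. Crybb3, another crystallin gene, had a peak inside, 1.65 kb from the start. At Selplg, which encodes the P-selectin ligand of white blood cells, a peak of 1551 bp covered the gene start (chr5:114280250-114281800).

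Windows 24 and 25 lie at 115 to 125 Mb. Window 24 had 21 peaks, 16 of them at genes without a symbol. Window 25 had 17, of which 8 were at the developmental transcription factor genes Tbx3, Tbx5 and Lhx5. The run of 8 regions beside ENSMUSG00000084548, a gene of 0.117 kb whose peaks lie between those of Med13l and Tbx3, spanned 103 kb. Its gaps were 0.399 to 32.6 kb with a median of 13 kb, its widths 1151 to 2201 bp, and its regions covered 13.8% of the span. A further peak assigned to ENSMUSG00000084548 lay 107 kb upstream, outside the run. Tbx3, a T-box gene of limb and heart that also acts in stem cells, had 1 peak at 101 kb upstream.

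Tbx5, the T-box gene of heart and forelimb (chr5:120284672-120334479, plus strand), had 5 peaks. They lay 80.9 kb upstream, 3.08, 28.9 and 36.6 kb from the start inside the gene, and 54.7 kb from it downstream. The downstream peak measured 2951 bp and the other 4 measured 1501 to 1651 bp. Lhx5, a LIM-homeobox gene of the forebrain, had 2 peaks of 2051 bp each, 48.7 and 23.2 kb upstream, which joined another region in a run of 52.3 kb. Nos1, the neuronal nitric oxide synthase gene, had 1 peak inside, 53.6 kb from its start. Myl2, the ventricular myosin light chain gene, had 1 peak 9.62 kb upstream.

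Window 26 (125 to 130 Mb) had the widest peaks of the 8 full windows, with a median of 1901 bp over 20 peaks. Tmem132c, one of a family of brain-expressed membrane protein genes, had peaks 59.9 and 13.4 kb upstream and 95.7 kb from the start inside, of 2001, 2351 and 1951 bp. Its relative Tmem132b had 2 peaks far downstream of the deposited start, at 214 and 299 kb. That entry was 9.44 kb long, against 324 kb for Tmem132c, and its length was not compared with RefSeq. A run of 4 regions over 50.4 kb lay downstream of 2 genes without a symbol, as 2 close pairs with gaps of 0.949 and 1.30 kb.

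Beyond 130 Mb, a further 3 runs were at Eln, Uncx and Elfn1. Eln encodes elastin, the elastic protein of arteries and skin (chr5:135178466-135223124, minus strand). Its peaks lay 20.7 kb from the start inside the gene and 14.9, 33.3 and 36.4 kb upstream, and measured 1601 to 2051 bp. Uncx encodes a homeodomain protein needed for vertebrae and ribs. It had peaks 16.2 kb upstream and 21.9, 42.1 and 61.7 kb downstream of a start whose gene is only 3.85 kb long. Elfn1, a synaptic membrane protein gene, had 5 peaks, all inside its 66.8 kb (chr5:140383897-140450665, plus strand). They lay 15.7, 20.2, 34.4, 38.5 and 45.3 kb from the start. Gaps were 2.05 to 12.2 kb, and the regions covered 29% of their span, the highest share of the 13 runs.

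Other members in this end of the chromosome had 1 or 2 peaks. The widest peak of the chromosome, 4151 bp, was assigned to Myl10, a myosin light chain gene (chr5:137180550-137184700), at 11.5 kb, and another Myl10 peak lay at 58.8 kb, both downstream. Of the 5 widest peaks, which include those of Myl10, Myo18b and Tbx5, the others measured 3201 and 2901 bp and lay upstream of genes without a symbol, at 35.2 and 238 kb. Cux1, a homeobox gene, had 1 peak 4.15 kb upstream. Auts2, a gene of neuronal development, had 1 peak inside, 14.8 kb from the start, and 1 at 68.8 kb upstream. Sdk1, a cell adhesion gene, had 2 peaks, 112 and 84.1 kb upstream. Foxk1, a forkhead gene, had 2 as well, at 98.4 and 23.5 kb upstream. Flt1, a receptor gene of blood vessels, had 1 assigned peak inside, 72.9 kb from the start. The peak assigned to Pan3 (chr5:148380250-148381600) also lay within the Flt1 body.

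**Figure D3:**
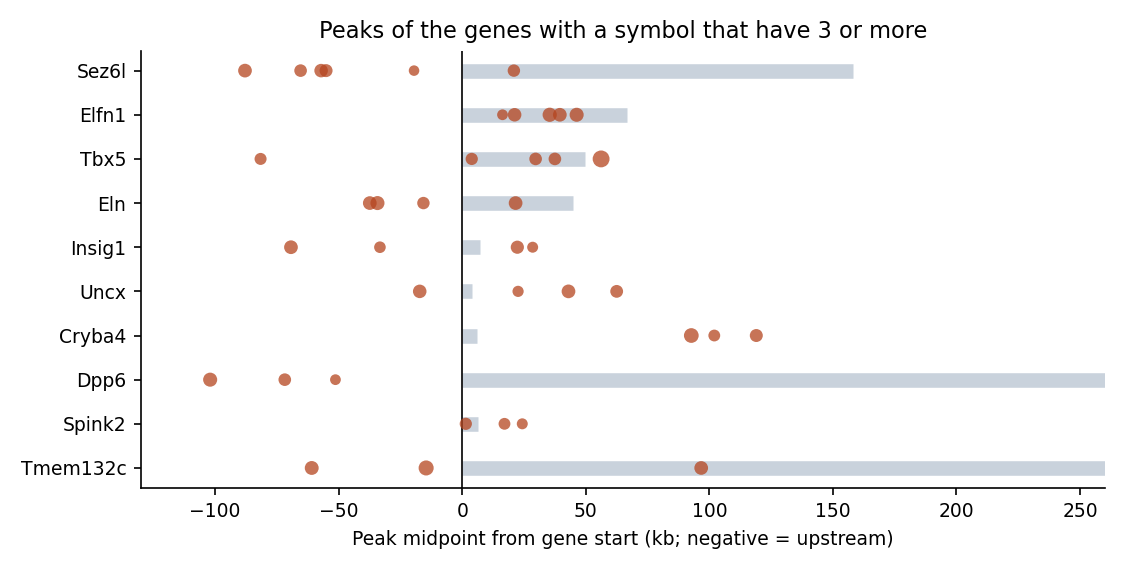
Points are peak midpoints, in kb from the start of the assigned gene along its strand (x axis; negative is upstream), for the 10 genes with a symbol that had 3 or more peaks; point area follows peak width and grey bars are gene bodies, drawn up to 260 kb. The peaks assigned to Elfn1 all lie inside the gene, those assigned to Dpp6 all before it, and those assigned to Insig1, Uncx and Tbx5 on both sides.

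By position class, the peaks of chromosome 5 lay much as those of other autosomes. In the authors' classes, 122 peaks (48.8%, 42.5 to 55.2%) were upstream, against 51.7% (49.6 to 53.8%) on the other autosomes. Inside the assigned gene were 43 (17.2%, 12.7 to 22.5%), against 13.9% (12.5 to 15.4%). Downstream were 80 (32.0%, 26.3 to 38.2%), against 32.7% (30.7 to 34.6%). In each of these classes the intervals overlap. The classes refer to the assigned gene only, so a peak classed upstream or downstream can lie inside another gene. Examples are the peaks of Gm6588 within Sez6l and that of Pan3 within Flt1. Overlaps with a gene's end made up 3 peaks (Shh, BC051076 and a gene without a symbol) and with its start 2. Peaks that take in a whole gene numbered 0 of 250, with an exact upper limit of 1.46%, against 11 of 2284 (0.482%) on the other autosomes.

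The classes were also counted for peaks in runs. Of 53 peaks in runs, 17 were upstream (32.1%, 19.9 to 46.3%), 25 downstream (47.2%, 33.3 to 61.4%) and 11 inside (20.8%, 10.8 to 34.1%). Of the 197 outside runs, 105 were upstream (53.3%, 46.1 to 60.4%) and 55 downstream (27.9%, 21.8 to 34.7%). The run of 8 downstream of 1 gene makes up 8 of the 25, and peaks of 1 run often share their assigned gene, which the intervals do not take into account. On the other autosomes 45% of peaks in runs (35.0 to 55.3%) and 52.0% of those outside (49.9 to 54.1%) were upstream.

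The median distance to the assigned gene start was 37.6 kb on chromosome 5 (31.6 to 45.2 kb) and 32.0 kb (29.1 to 35.7 kb) on the other autosomes. Of the other autosomes, 8 had a larger median and 10 a smaller one. Within 1 kb lay 9 peaks (3.60%, 1.66 to 6.72%), against 4.47% (3.66 to 5.40%), and 1 to 10 kb away lay 35 (14%, 9.95 to 18.9%), against 19.5% (17.9 to 21.2%). From 10 to 50 kb there were 100 (40.0%, 33.9 to 46.4%), against 36.4% (34.4 to 38.4%). From 50 to 200 kb there were 86 (34.4%, 28.5 to 40.6%), against 28.5% (26.7 to 30.4%). Beyond 200 kb there were 20 (8.00%, 4.95 to 12.1%), against 11.1% (9.86 to 12.5%).

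The 9 peaks within 1 kb of a deposited start included those at Selplg and Cxcl11, whose starts were covered, and at Crmp1 and Tmem120b. The others were at Dnahc10 (a dynein heavy chain gene, 265 bp), at Spink2 and at 3 genes without a symbol. The Dnahc10 entry was 32838 bp long, against 109224 bp in RefSeq. Another entry of that symbol started upstream of this peak, at 125257577, so the peak may not lie at the start of the full gene. Spink2 was 6347 bp long as deposited, against 11153 bp in RefSeq. The farthest peak was 677 kb from its assigned gene, Rab28, a small GTPase gene, on the downstream side. The next 4 were at 668 kb from a gene without a symbol, at 393 kb from Gm6460, at 389 kb from another gene without a symbol and at 349 kb from the start of Med13l, a Mediator subunit gene.

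**Figure D4:**
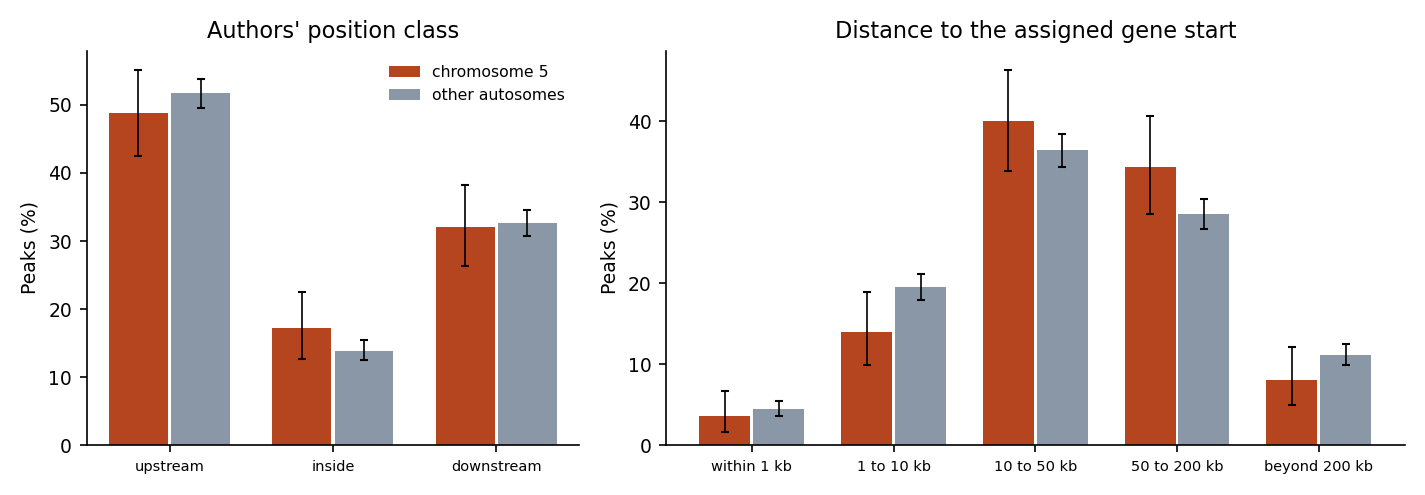
Left, the share of peaks in each of the authors' 3 main position classes; right, the share in each bin of distance to the assigned gene start, in percent, for chromosome 5 and the other autosomes, with exact binomial 95% intervals as error bars. Shares of chromosome 5 such as 48.8% upstream and 40.0% at 10 to 50 kb stand near 51.7% and 36.4% on the other autosomes.

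Genes without a symbol took 78 peaks of chromosome 5 (31.2%, 25.5 to 37.3%), against 35.2% (33.2 to 37.2%) on the other autosomes. Their peaks had a median distance of 58.0 kb (36.3 to 76.5 kb), against 32.9 kb (26.4 to 40.5 kb) for genes with a symbol. Inside the gene lay 3 of the 78 (3.85%), against 40 of 172 (23.3%) for genes with a symbol. A peak can lie inside only a gene longer than itself. Many genes without a symbol were shorter than the narrowest peak (1051 bp), such as ENSMUSG00000084548 at 0.117 kb. The shares were not adjusted for gene length and therefore do not describe the peaks alone.

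Widths on chromosome 5 had a median of 1601 bp (1551 to 1651 bp), with quartiles of 1351 and 1901 bp and extremes of 1051 and 4151 bp. The median of the other autosomes was 1551 bp (1551 to 1601 bp), and their single medians ran from 1501 bp on chromosome 7 to 1701 bp on chromosome 17. All coordinates lie on a grid of 50 bp, so these medians are 1 grid step apart. At least 2000 bp wide were 44 peaks (17.6%, 13.1 to 22.9%), against 15% (13.6 to 16.5%).

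Within the chromosome, width went with crowding and with position along the chromosome when windows were pooled. In windows 21 to 31 the median was 1701 bp (1651 to 1801 bp) over 155 peaks, and in windows 1 to 20 it was 1401 bp (1351 to 1551 bp) over 95. At least 2000 bp wide were 36 of the 155 (23.2%, 16.8 to 30.7%), against 8 of the 95 (8.42%, 3.71 to 15.9%). In the 8 windows with at least 10 peaks the median was 1676 bp (1601 to 1751 bp), and in the other 23 windows 1476 bp (1351 to 1601 bp). Single windows did not all follow this order. Window 6 was full but narrow at 1351 bp, and window 21, with 18 peaks, had a median of 1551 bp. Windows 13 and 27, with 5 peaks each, had medians of 1851 and 1801 bp.

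In runs the median width was 1751 bp (1651 to 1951 bp), against 1551 bp (1501 to 1651 bp) outside them. The same order was seen on the other autosomes, with 1651 bp (1551 to 1751 bp) in runs and 1551 bp outside, and with 1651 bp (1601 to 1701 bp) in windows of at least 10 peaks and 1551 bp (1501 to 1551 bp) in their other windows. Both orders were thus found on chromosome 5 and on the other autosomes.

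**Figure D5:**
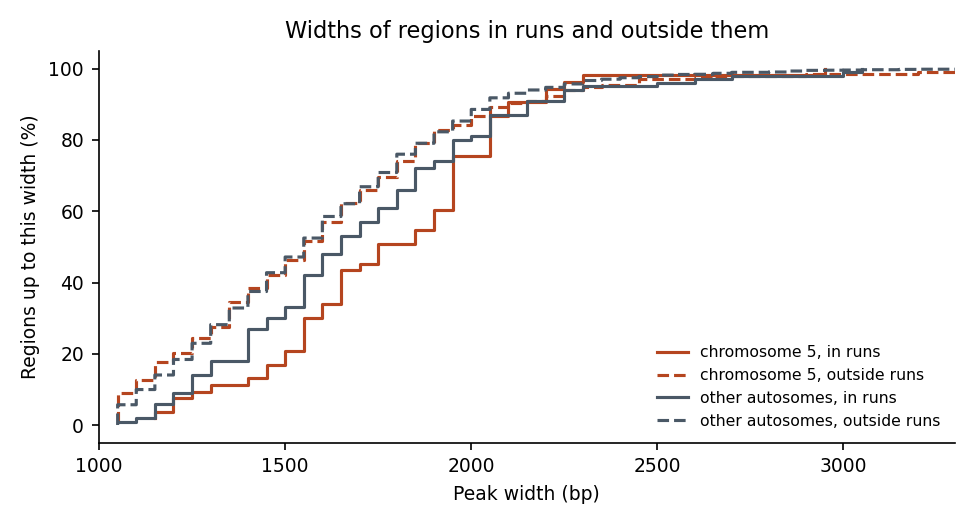
Each line gives the percentage of regions (y axis) up to a given width in bp (x axis), for regions in runs (solid) and outside runs (dashed) on chromosome 5 and on the other autosomes; the axis stops short of the widest regions. The solid line of chromosome 5, with a median of 1751 bp, lies right of its dashed line at 1551 bp.

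Among named genes, lists of known function were counted by whether a member had an assigned peak. Of the 1269 protein-coding genes of chromosome 5 in the RefSeq table, 114 had one (8.98%); on the other autosomes the share was 6.17%. The lists were drawn up with earlier results of these data known, and several members, among them Tbx5, Uncx, Sez6l, Elfn1, Tmem132c, Eln, Myl10 and Myo18b, were known to have peaks. The counts are therefore a description and no evidence that a list stands apart.

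Of 22 developmental transcription factor genes on the chromosome, 7 had a peak (Tbx3, Tbx5, Lhx5, Uncx, Mnx1, Nkx3-2 and Cux1), with 15 peaks in all. No peak was assigned to the other 15, among them the homeobox genes Msx1, Pdx1, Cdx2, Gsx1, Gsx2, En2 and Nkx6-1. Of 18 signalling ligands and receptors, 3 had 1 peak each (Shh, Pdgfra and Flt1). The growth factor and receptor genes without one included Kit, Kdr, Fgfr3, Fgf5 and Bmp3. Of 17 genes listed under axon guidance and neuronal adhesion, 8 had a peak, with 23 peaks, and all of these lay more than 10 kb from the gene start. The list includes Dpp6, a channel subunit gene, and leaves out Epha5 and Sdk1, which had peaks. It is therefore not a full count of that class. Of its members, Sema3a and Sema3d, genes of secreted repellents of axons, had 1 distant upstream peak each, at 73.4 and 269 kb. Slit2, Reln and Sema3c had none.

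Of 6 transmitter receptor and calcium channel genes, Grm3, a glutamate receptor gene, had 2 peaks, 1 inside at 168 kb from the start and 1 at 44.6 kb upstream. The 4 GABA receptor genes Gabra2, Gabra4, Gabrb1 and Gabrg1, which lie side by side, had none. Of 11 CXC chemokine genes, Cxcl11 had a peak and its neighbours Cxcl9 and Cxcl10 had none. Of 18 genes in and around the elastin region, whose human counterpart is lost in Williams syndrome, 4 had a peak. Besides Eln and Auts2 these were Lat2, an adaptor gene of blood cells, with 1 peak 3.11 kb upstream, and Cldn4, a tight junction gene, with 1 at 12.3 kb upstream. Limk1, Gtf2i, Baz1b and Stx1a had none. All 4 muscle genes listed on the chromosome had a peak (Tbx5, Myl2, Myl10 and Myo18b). Of 7 genes listed under blood vessels and blood, 3 did (Flt1, Selplg and Pdgfra, the last named above as a gene of mesenchyme).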

How the data were processed

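The study measured macroH2A1 occupancy by ChIP-seq in E14 cells, with 1 macroH2A1 and 1 IgG library. Reads were mapped with Bowtie to NCBIM37 (mm9), per the submitters' processing notes. The deposited list names its peaks CCAT, after a peak caller, and assigns each to the nearest gene start, per the file headers; the version, threshold and control of the caller were not given in the sources used here. Values are coordinates, widths and distances in bp. The header lacks a name for the row numbers, so columns were read by position. Coordinates lay on a grid of 50 bp, and deposited distances followed from them, in all 2560 rows.

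Peaks were placed in 5 Mb windows by midpoint, gaps run from the end of a region to the start of the next, and a distance is that between the gene start and the closer edge of the peak (0 if covered). Spans end at the last deposited coordinate of each chromosome. Shares have exact Clopper-Pearson and medians exact order-statistic 95% intervals (Python 3.11.15, scipy 1.17.1). Of 125 assigned symbols, 124 matched RefSeq (GRCm38.p6, names only) on chromosome 5. The functions were tested on simulated peaks.

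Genes with a symbol were named by rule. The rule took 3 or more peaks, a start within 1 kb, the 5 widest and 5 farthest peaks and runs of 4 or more. It also took list members with a peak and flanks of the longest empty stretch. Further genes, and the genes without a symbol that are named, are examples chosen after their values were seen. Members and lists were chosen with earlier results of these data known.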

Additional observations from a re-analysis of the deposited data

How the results depend on the processing

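The 10 measures of chromosome 5 were recomputed under other settings, 34 values in all, of which 26 stayed inside the interval of the reported value or within 1.5 times of it. Its share of the list was 9.77% with distinct regions, 10.6% among the wider peaks (over 1551 bp) and 10.5% among those with a lower name number. The fullest window held 5.80 peaks per Mb, against 10.0 with windows of 2 Mb, where a smaller window fits a dense spot more closely. The share in runs was 14.4% with gaps of 25 kb, 28.8% with 100 kb and 14% after joining regions less than 5 kb apart, the last chosen after seeing the data. Among genes with a symbol, 25.6% of peaks were downstream and 23.3% inside. Without the 8 fullest windows, also chosen after seeing the data, the median width was 1476 bp. Counting peaks within 10 kb of the start, 9 instead of 27 of the 94 listed genes had one. No paired analysis was possible because each group has 1 library. With no replicate, no depth and no values of the IgG library, variation between cultures and background were not assessed.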

Other observations

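Window 21 (100 to 105 Mb) was full without a run. Its 18 peaks were assigned to 14 genes. Mapk10, a stress kinase gene of neurons, had 2 peaks inside, 17.4 and 170 kb from the start. Cds1, a gene of phospholipid synthesis, had 2 upstream at 24.5 and 39.4 kb, and Klhl8 had 2 upstream at 21.1 and 27.3 kb. Hnrnpd, Hpse, Wdfy3, Arhgap24, Sec31a and Agpat9 had 1 assigned peak each.

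Each peak name ends in a number whose meaning is not given in the sources used here. Of the numbers 1 to 100, 15 were on chromosome 5, and of the other autosomes chromosome 8 had the most with 10. Of the first 10 numbers, 3 were on chromosome 5. These 3 peaks lay near Gm6588, BC057022 and a gene without a symbol, all between 112 and 115 Mb. In windows 21 to 31 the median number was 988 and in windows 1 to 20 it was 1399.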
